A study of Danio rerio with 6 samples.

Results

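Integrin subunit genes were examined in adult zebrafish skin, in sorted cells expressing GFP from the mpeg1 promoter. Members were chosen by name: gene names starting with itga or itgb were taken, and of the 36 that matched, the 3 that name integrin-binding or integrin-like proteins (itgb1bp1, ITGB1BP2 and itgbl1) were left out. This gave 33 genes of the 32520 in the table, 21 for alpha chains and 12 for beta chains. RNA sequencing libraries came from 3 groups of 2: GFP+DsRed- cells of csf1rDM fish (replicates 2 and 3), GFP+DsRed+ cells of control fish (replicates 1 and 3) and GFP+DsRed- cells of control fish (replicates 1 and 2). The csf1rDM fish were homozygous for mutations in the pair of genes for the Csf1 receptor, csf1ra (j4e1/j4e1) and csf1rb (sa1503/sa1503), and the control fish were wild type for both. All fish were untreated, were 3 months old and carried tg(mpeg1-EGFP), tg(Kdrl:Cre) and tg(act2b:loxP-STOP-loxP-DsRedexpress). The mpeg1 promoter labels macrophages and also metaphocytes. Per the study, metaphocytes are macrophage-like cells, reported in skin and intestine, that do not derive from blood. It describes lower expression of phagocytosis genes and higher expression of epithelial genes in them. Cre under the kdrl promoter, which is active in endothelium, switches DsRed on for good in endothelial cells and in the blood cells that arise from them, so that the mark records origin and not present cell type. Whether a library pooled several fish was not given in the sources used here, and p-values measure the spread between these libraries only.

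Integrins are cell surface receptors built from 1 alpha and 1 beta chain, which attach cells to the extracellular matrix or to other cells and connect to the actin or keratin cytoskeleton. The pairing decides the ligand. In mammals, beta2 and beta7 chains and the alphaE and alphaM chains belong to leukocytes, and alphaE pairs with beta7 to bind E-cadherin on epithelial cells. The alpha6beta4 pair anchors basal keratinocytes to laminin in hemidesmosomes. The alpha1, alpha2, alpha10 and alpha11 chains pair with beta1 to bind collagen, and alpha5, alpha8 and alphaV form receptors for the RGD motif of fibronectin and related proteins. Roles given below are known from mammals unless another species is named.

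The libraries held 5072623 and 4024245 gene-assigned reads for csf1rDM GFP+DsRed- cells, 10069843 and 14816042 for control GFP+DsRed+ cells and 11363542 and 10448025 for control GFP+DsRed- cells, so that 1 read was worth between 0.067 and 0.248 CPM (the usual unit of sequencing level, relative to the total of a library). The mutated gene csf1ra was at 1.40 and 2.25 CPM in csf1rDM GFP+DsRed- cells, 1081 and 1124 CPM in control GFP+DsRed+ cells and 102 and 86.9 CPM in control GFP+DsRed- cells. No read of csf1rb was counted in either csf1rDM library, which allows up to 0.591 and 0.745 CPM by 3 reads (counting error only). It was at 34.1 and 47.7 CPM in control GFP+DsRed+ cells. In control GFP+DsRed- cells it had only 6 reads in each library (0.55 and 0.60 CPM). Between the genotypes in GFP+DsRed- cells csf1rb therefore did not pass (log2 fold change -0.61 ± 0.27 SE, adjusted p = 0.2 by limma). Levels of ptprc, the pan-leukocyte gene CD45, were 15.0 and 10.7 CPM in csf1rDM GFP+DsRed- cells, 571 and 785 CPM in control GFP+DsRed+ cells and 20.2 and 13.2 CPM in control GFP+DsRed- cells. Summed epithelial markers (cdh1, epcam, krt4, krt5, tp63) spanned 14541 to 16276 CPM in csf1rDM GFP+DsRed- cells, 6229 to 9439 CPM in control GFP+DsRed+ cells and 14390 to 18271 CPM in control GFP+DsRed- cells, so epithelial transcripts were present in every library. Summed fibroblast markers (col1a1a, col1a2, pdgfra, dcn) spanned 1093 to 2835, 4580 to 4616 and 9130 to 10307 CPM in the same order of groups. Summed pigment cell markers (mitfa, pnp4a, tyr, pmela, gch2, aox5) spanned 5.5 to 6.6, 22.4 to 27.7 and 176 to 224 CPM. The B cell sum (cd79a, cd79b, pax5) stayed at or below 3.45 CPM in every library and the T and NK lymphocyte sum (lck, zap70) at or below 12.8 CPM. The listed markers ighm, cd3eb and nkl.2 had no row of that name, so these sums are partial and do not show that lymphocytes were absent. In bulk RNA, fewer cells of a type and less RNA per cell cannot be told apart, and this holds for every result that follows.

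Of the 33 members, 29 had at least 1 CPM in at least 2 libraries and were tested with limma among 20382 genes, with Benjamini-Hochberg adjustment over all of them. Between control GFP+DsRed+ and control GFP+DsRed- cells, 18 of the 29 passed at an adjusted p below 0.05, of which 9 were higher and 9 lower in GFP+DsRed+ cells, and 25.4% of all tested genes passed that threshold (14.6% higher and 10.8% lower). A log2 fold change beyond 2 was reached as well by 5 members, all higher in GFP+DsRed+ cells, against 6.02% of all genes (4.98% higher and 1.04% lower). Just short of it on the lower side, itga8 and itgam were both at -2.00. Without control GFP+DsRed- replicate 2 they were at -2.20 and -2.44, and itgb2 was at 1.93. The split at this fold threshold therefore depended on the fit. Between csf1rDM and control GFP+DsRed- cells, 4 of the 29 passed, all lower in csf1rDM cells, against 6.51% of all genes (3.24% higher and 3.27% lower). None of the 29 was higher in csf1rDM cells at that threshold in limma. At an unadjusted p below 0.05, 1 was higher and 9 lower (34.5%), against 26.7% of all genes (2584 higher and 2857 lower of 20382). No member was beyond a log2 fold change of 2 at an unadjusted p below 0.05, against 405 of 20382 genes. By the adjusted p the share of all genes was 1.56% (0.55% higher and 1.01% lower). Shares this small give few or no calls among 29 genes, so the lack of such members is not read as a difference from all genes. Without csf1rDM replicate 2, itga2.3 and itgb5 were beyond that fold change (2.14 and -2.01). Between csf1rDM GFP+DsRed- and control GFP+DsRed+ cells, 16 of the 29 passed, 5 higher and 11 lower in csf1rDM cells, against 32.4% of all genes (14.1% higher and 18.3% lower). Of these 16, 6 were beyond a log2 fold change of 2, all lower in csf1rDM cells, against 8.09% of all genes (2.44% higher and 5.64% lower). The 3 comparisons share libraries pairwise and are not independent of each other. The median log2 fold change of the 29 members was -0.21, -0.16 and 0.13 in the order given here, beside -0.03, -0.05 and -0.07 over all tested genes.

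**Figure D1:**
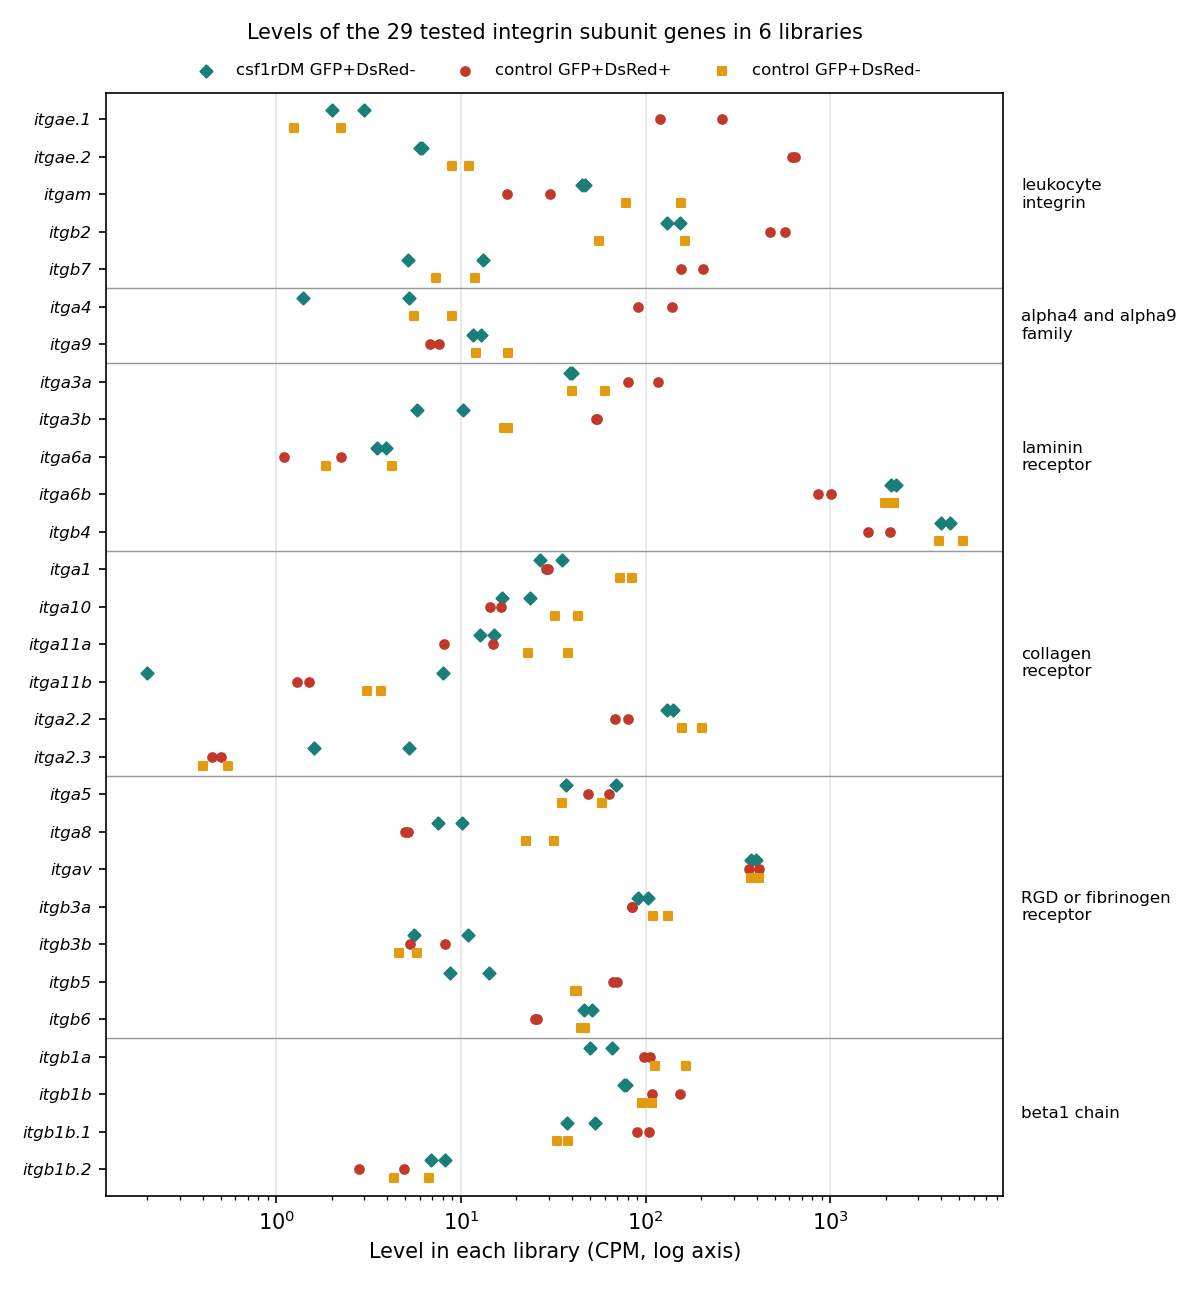
Level of each tested integrin subunit gene in each of the 6 libraries, in CPM on a log axis, grouped by receptor class (diamonds, csf1rDM GFP+DsRed-; circles, control GFP+DsRed+; squares, control GFP+DsRed-). Levels were not divided by gene length, so that they can be compared within a gene but not between genes. The circles of itgae.1, itgae.2, itgb7 and itga4 lie to the right of the other libraries, those of itgb4 and itga6b to the left, and the symbols of itgav lie together between 362 and 414 CPM.

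Leaving out 1 library changed these counts. Over all tested genes, fewer passed as well in each fit named in this paragraph, and the ranges are given in the last section. In GFP+DsRed+ against GFP+DsRed- control cells, 11 members passed without control GFP+DsRed+ replicate 3 and 10 without control GFP+DsRed- replicate 2. In csf1rDM against control GFP+DsRed- cells, none passed without control GFP+DsRed- replicate 1 or 2, and 2 passed without control GFP+DsRed+ replicate 1 or 3, which entered the fit only through the shared estimate of the spread. In csf1rDM GFP+DsRed- against control GFP+DsRed+ cells, 9 passed without control GFP+DsRed+ replicate 3. Of the 38 calls in the 3 comparisons, 18 passed whichever library was left out, of which 10 lay in the first comparison, 0 in the second and 8 in the third.

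**Figure D2:**
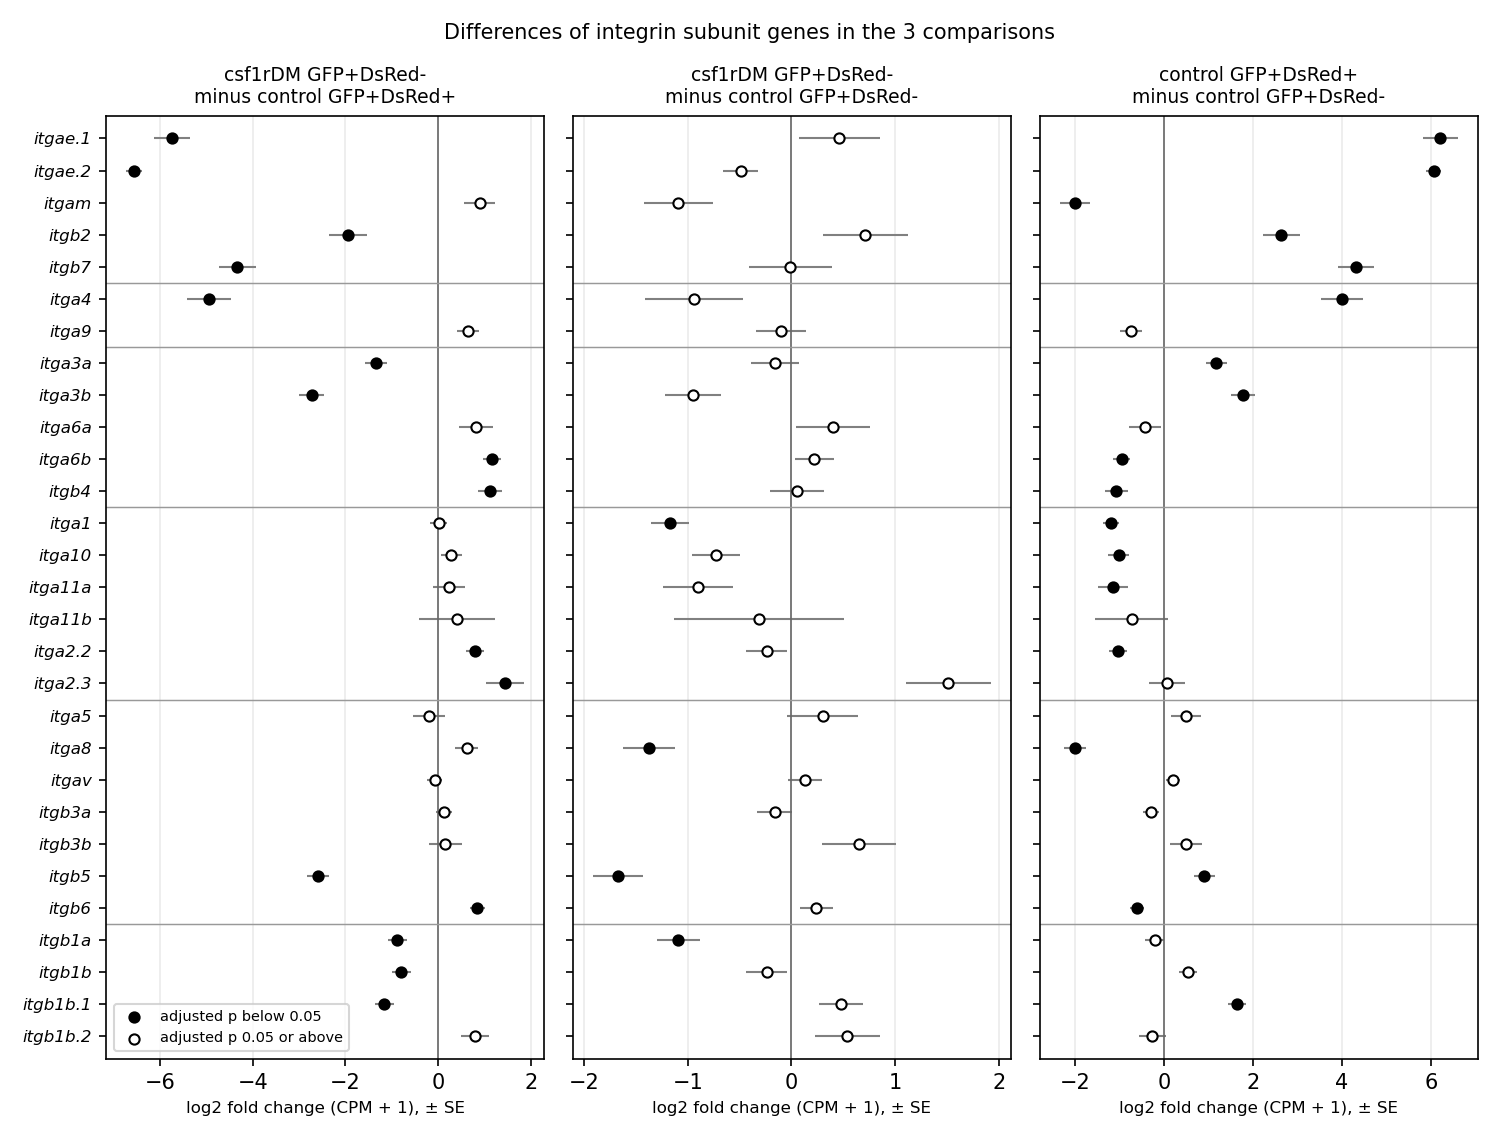
Log2 fold change on the log2(CPM + 1) scale (± SE of the limma model, 2 libraries a group) of the 29 tested members in csf1rDM GFP+DsRed- against control GFP+DsRed+ cells (left), csf1rDM against control GFP+DsRed- cells (middle) and control GFP+DsRed+ against control GFP+DsRed- cells (right). Filled points had an adjusted p below 0.05, open points did not. The horizontal scales differ between panels: the middle panel runs from -1.67 (itgb5) to 1.51 (itga2.3), while itgae.2 lies at -6.56 on the left and itgae.1 at 6.21 on the right.

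Of the 5 members whose chains belong to leukocytes, 4 were higher in GFP+DsRed+ than in GFP+DsRed- control cells and 1, itgam, was lower. Among all tested genes, 14.6% were higher and 10.8% lower. itgae.2 (ENSDARG00000057787), 1 of 2 zebrafish genes for the alphaE chain, was at 6.15 and 6.00 CPM in csf1rDM GFP+DsRed- cells, 648 and 620 CPM in control GFP+DsRed+ cells and 11 and 8.94 CPM in control GFP+DsRed- cells. Both GFP+DsRed+ libraries lay far above the other 4, which held at most 1.74% of the GFP+DsRed+ mean. The log2 fold change was 6.06 ± 0.17 SE in GFP+DsRed+ against control GFP+DsRed- cells (adjusted p = 6.1e-05 by limma, used throughout) and -6.56 ± 0.17 in csf1rDM GFP+DsRed- against GFP+DsRed+ cells (adjusted p = 1.7e-05). itgae.1 (ENSDARG00000098012), the other alphaE gene, was at 3.00 and 2.00 CPM in csf1rDM GFP+DsRed- cells, 120 and 260 CPM in GFP+DsRed+ cells and 2.25 and 1.25 CPM in control GFP+DsRed- cells. The GFP+DsRed+ libraries lay further apart than for itgae.2, yet both exceeded the other 4 libraries, and the gene passed in both comparisons with GFP+DsRed+ cells (6.21 ± 0.39, adjusted p = 0.000113, and -5.75 ± 0.39, adjusted p = 0.000126). In the RefSeq gene order of another assembly (GRCz12tu), 1 protein-coding gene lies between the pair. How reads that fit both copies were treated was not given in the sources used here, so the separate levels of the pair are uncertain.

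itgb7 (ENSDARG00000044318), the beta7 chain that pairs with alphaE and alpha4, was at 5.15 and 13.2 CPM in csf1rDM GFP+DsRed- cells, 155 and 205 CPM in control GFP+DsRed+ cells and 11.9 and 7.30 CPM in control GFP+DsRed- cells. It was 18.8-fold higher by mean CPM in GFP+DsRed+ than in GFP+DsRed- control cells (log2 fold change 4.32 ± 0.40, adjusted p = 0.000463). itga4 (ENSDARG00000103056), whose alpha4 chain pairs with beta1 or beta7 and binds VCAM1 and fibronectin, was at 1.40 and 5.25 CPM in csf1rDM GFP+DsRed- cells, 140 and 90.5 CPM in GFP+DsRed+ cells and 8.99 and 5.60 CPM in control GFP+DsRed- cells. Here too the GFP+DsRed+ libraries did not overlap with the others, with a log2 fold change of 4.01 ± 0.47 (adjusted p = 0.00131) against control GFP+DsRed- cells, and csf1rDM GFP+DsRed- cells were lower than GFP+DsRed+ cells by -4.95 ± 0.47 (adjusted p = 0.000455). The corresponding value for itgb7 was -4.33 ± 0.40 (adjusted p = 0.000401). None of these 4 genes passed between csf1rDM and control GFP+DsRed- cells, where the 95% intervals of the difference ran from -0.46 to 1.37 for itgae.1, from -0.89 to -0.10 for itgae.2 (adjusted p = 0.118), from -0.95 to 0.93 for itgb7 and from -2.05 to 0.17 for itga4.

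itgb2 (ENSDARG00000016939), the beta2 chain (CD18) common to the leukocyte adhesion receptors, kept a larger share of its GFP+DsRed+ level in GFP+DsRed- cells. It was at 153 and 130 CPM in csf1rDM GFP+DsRed- cells, 474 and 570 CPM in control GFP+DsRed+ cells and 163 and 55.9 CPM in control GFP+DsRed- cells. The 2 control GFP+DsRed- libraries were far apart, but neither overlapped with the GFP+DsRed+ libraries. The log2 fold change of GFP+DsRed+ against control GFP+DsRed- cells was 2.64 ± 0.41 (adjusted p = 0.00441), and it was 3.36 without control GFP+DsRed- replicate 1 and 1.93 without replicate 2. csf1rDM GFP+DsRed- cells were lower than GFP+DsRed+ cells by -1.94 ± 0.41 (adjusted p = 0.0123), a call that was lost without control GFP+DsRed+ replicate 3 (adjusted p = 0.0706) or without csf1rDM replicate 3 (adjusted p = 0.0658). The ratio of itgb2 to ptprc within a library was 10.2 and 12.2 in csf1rDM GFP+DsRed- cells, 0.83 and 0.727 in GFP+DsRed+ cells and 8.08 and 4.22 in control GFP+DsRed- cells, so the genes did not keep 1 ratio across the groups. As a share of the GFP+DsRed+ mean, itgb2 was at 29.4% and 25.0% in csf1rDM GFP+DsRed- cells and at 31.3% and 10.7% in control GFP+DsRed- cells. The leukocyte cytoskeleton genes coro1a and lcp1 had shares between 19.0% and 47.2% in the same 4 libraries, whereas ptprc had shares between 1.58% and 2.98% and spi1b, a myeloid transcription factor, between 0.58% and 1.58%. These shares describe the libraries and were not tested against each other.

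**Figure D3:**
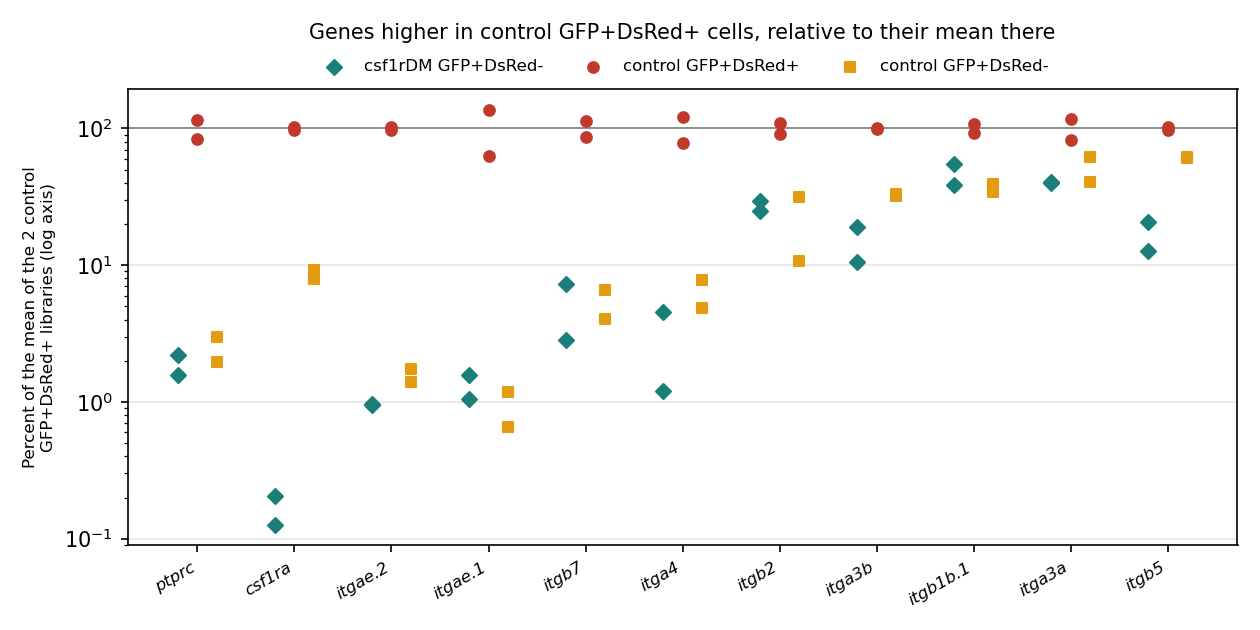
Level of each gene in each library as a percent of its mean in the 2 control GFP+DsRed+ libraries, on a log axis (diamonds, csf1rDM GFP+DsRed-; circles, control GFP+DsRed+; squares, control GFP+DsRed-), for ptprc, csf1ra and the 9 members that were higher in GFP+DsRed+ than in GFP+DsRed- control cells. In the GFP+DsRed- libraries, itgae.2, itgae.1, itgb7 and itga4 lie below 10% of the GFP+DsRed+ mean and itgb2, itga3b, itgb1b.1, itga3a and itgb5 above 10%.

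itgam (ENSDARG00000096587), listed as itgam.2 in a current gene name table, encodes an alphaM chain, which pairs with beta2 into a complement receptor of myeloid cells. It ran against the other leukocyte members, with 45.1 and 47.2 CPM in csf1rDM GFP+DsRed- cells, 17.8 and 30.2 CPM in control GFP+DsRed+ cells and 156 and 78.6 CPM in control GFP+DsRed- cells. The 3 groups did not overlap, and GFP+DsRed+ cells were lower than control GFP+DsRed- cells by -2.00 ± 0.33 (adjusted p = 0.00574), just short of the fold threshold. The differences of csf1rDM GFP+DsRed- cells from control GFP+DsRed- cells (-1.09 ± 0.33, adjusted p = 0.0932) and from GFP+DsRed+ cells (0.90 ± 0.33, adjusted p = 0.0788) did not pass. Like itgb2, itgam was higher in control GFP+DsRed- replicate 1 than in replicate 2, and so was the sum of the 4 leukocyte markers (ptprc, coro1a, lcp1, spi1b), at 287 and 128 CPM in these libraries, 139 to 229 CPM in csf1rDM GFP+DsRed- cells and 1455 to 1867 CPM in GFP+DsRed+ cells. None of the 4 is at 0 in a library, and the part of leukocytes in the GFP+DsRed- levels was not tested. Of the 3 neutrophil markers, mpx was at 1.40 CPM in csf1rDM replicate 2 and 30.3 CPM in csf1rDM replicate 3. In these libraries lyz had 1 and 0 reads and cpa5 had 1 and 2 reads. The part of neutrophils in the itgam and itgb2 levels was not tested.

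The laminin receptors split into genes that were lower and genes that were higher in GFP+DsRed+ cells. itgb4 (ENSDARG00000028507), the beta4 chain of hemidesmosomes, was at 4452 and 3981 CPM in csf1rDM GFP+DsRed- cells, 2117 and 1600 CPM in control GFP+DsRed+ cells and 3883 and 5224 CPM in control GFP+DsRed- cells. itga6b (ENSDARG00000069946), the alpha6 chain that pairs with it, was at 2269 and 2132 CPM in csf1rDM GFP+DsRed- cells, 1016 and 861 CPM in GFP+DsRed+ cells and 1976 and 2221 CPM in control GFP+DsRed- cells. For both genes the GFP+DsRed- libraries of the 2 genotypes overlapped, and the GFP+DsRed+ libraries lay below all 4 of them. GFP+DsRed+ cells were lower than control GFP+DsRed- cells by -1.07 ± 0.26 for itgb4 (adjusted p = 0.0222) and by -0.95 ± 0.19 for itga6b (adjusted p = 0.0113). csf1rDM GFP+DsRed- cells were higher than GFP+DsRed+ cells by 1.13 ± 0.26 for itgb4 (adjusted p = 0.0154) and by 1.17 ± 0.19 for itga6b (adjusted p = 0.00392). The difference between the genotypes within GFP+DsRed- cells was 0.05 for itgb4 (95% interval -0.55 to 0.66) and 0.22 for itga6b (95% interval -0.22 to 0.66), and neither passed.

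The ratio of itgb4 to itga6b stayed between 1.86 and 2.35 in all 6 libraries, although the level of each gene differed between the groups. Both genes were lower in GFP+DsRed+ cells, as were the epithelial marker sums given above. Most of these sums was krt5 (10868 of 16276 CPM in csf1rDM replicate 2). Between the control groups cdh1 and epcam passed as lower, while krt4 (adjusted p = 0.0664), krt5 (adjusted p = 0.113) and tp63 (adjusted p = 0.066) did not. In csf1rDM replicate 3, cdh1 and epcam were higher than in replicate 2, while krt4, krt5 and tp63 were lower, as were itgb4 and itga6b. In control GFP+DsRed- replicate 2, each of these markers was higher than in replicate 1, as were itgb4 and itga6b. cdh1, the E-cadherin gene, was at 1636 and 1686 CPM in csf1rDM GFP+DsRed- cells, 549 and 456 CPM in GFP+DsRed+ cells and 1414 and 1447 CPM in control GFP+DsRed- cells. Relative to cdh1 in the same library, itgb4 was at 2.72 and 2.36 in csf1rDM GFP+DsRed- cells, 3.86 and 3.51 in GFP+DsRed+ cells and 2.75 and 3.61 in control GFP+DsRed- cells. For itga6b these ratios were 1.39 and 1.26, 1.85 and 1.89, and 1.40 and 1.54. Such ratios depend on the marker chosen, and only cdh1 was used. In GFP+DsRed+ against GFP+DsRed- control cells, cdh1 had the largest drop of the 5 markers (log2 fold change -1.30) and krt5 the smallest (-0.77). The values of itgb4 (-1.07) and itga6b (-0.95) lay between these. The part of epithelial cells in these levels was not tested. In the comparison of the control groups, neither itgb4 nor itga6b passed without control GFP+DsRed- replicate 2 or without GFP+DsRed+ replicate 3, with itgb4 at an adjusted p of 0.125 and 0.162 in these fits, and itgb4 did not pass when genes below the filter were kept (adjusted p = 0.0635). In csf1rDM GFP+DsRed- against GFP+DsRed+ cells, itgb4 did not pass without GFP+DsRed+ replicate 3 (adjusted p = 0.11) or csf1rDM replicate 2 (adjusted p = 0.0566), while itga6b passed without each library in turn.

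The alpha3 chain also binds laminin, with beta1 as its partner, and both of its genes were higher in GFP+DsRed+ cells. itga3b (ENSDARG00000012824) was at 10.3 and 5.75 CPM in csf1rDM GFP+DsRed- cells, 54.4 and 53.9 CPM in control GFP+DsRed+ cells and 17.2 and 18.1 CPM in control GFP+DsRed- cells. The 3 groups did not overlap, and the log2 fold change was 1.77 ± 0.27 in GFP+DsRed+ against control GFP+DsRed- cells (adjusted p = 0.00412) and -2.73 ± 0.27 in csf1rDM GFP+DsRed- against GFP+DsRed+ cells (adjusted p = 0.000563). Between the genotypes in GFP+DsRed- cells, itga3b differed by -0.95 ± 0.27 and did not pass (adjusted p = 0.0816), or by -1.34 ± 0.20 without csf1rDM replicate 2 (adjusted p = 0.0252). itga3a (ENSDARG00000037917) was at 39 and 40 CPM in csf1rDM GFP+DsRed- cells, 80.4 and 117 CPM in GFP+DsRed+ cells and 60.5 and 39.9 CPM in control GFP+DsRed- cells. GFP+DsRed+ cells were higher than control GFP+DsRed- cells by 1.18 ± 0.23 (adjusted p = 0.0114), and csf1rDM GFP+DsRed- cells were lower than GFP+DsRed+ cells by -1.34 ± 0.23 (adjusted p = 0.00549). The first of these calls was lost without GFP+DsRed+ replicate 3 and without control GFP+DsRed- replicate 2. itga6a, the second alpha6 gene, was at or below 4.25 CPM in every library and passed in no comparison.

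Of the 6 tested collagen receptor genes, 4 were lower in GFP+DsRed+ than in GFP+DsRed- control cells and none was higher, with a median log2 fold change of -1.03. Among all tested genes, 10.8% were lower and 14.6% higher, with a median of -0.03. itga1 (ENSDARG00000074316), the alpha1 chain, was at 26.8 and 35.3 CPM in csf1rDM GFP+DsRed- cells, 28.8 and 29.5 CPM in control GFP+DsRed+ cells and 84.3 and 72.5 CPM in control GFP+DsRed- cells. Both control GFP+DsRed- libraries thus stood above the other groups, which overlapped. The log2 fold change was -1.17 ± 0.18 in csf1rDM against control GFP+DsRed- cells (adjusted p = 0.0191) and -1.18 ± 0.18 in GFP+DsRed+ against GFP+DsRed- control cells (adjusted p = 0.00418). Between csf1rDM GFP+DsRed- and GFP+DsRed+ cells it was 0.01, with a 95% interval of -0.42 to 0.45.

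itga10 (ENSDARG00000002507) and itga11a (ENSDARG00000036086), whose chains are known from cartilage and from fibroblasts, were also highest in control GFP+DsRed- cells. itga10 was at 16.8 and 23.6 CPM in csf1rDM GFP+DsRed- cells, 16.5 and 14.3 CPM in control GFP+DsRed+ cells and 43.3 and 32.4 CPM in control GFP+DsRed- cells. itga11a was at 15.2 and 12.7 CPM in csf1rDM GFP+DsRed- cells, 15.0 and 8.09 CPM in GFP+DsRed+ cells and 37.8 and 23.2 CPM in control GFP+DsRed- cells. GFP+DsRed+ cells were lower than control GFP+DsRed- cells by -1.02 ± 0.23 for itga10 (adjusted p = 0.0188) and by -1.14 ± 0.34 for itga11a (adjusted p = 0.0486). The first call was lost without any 1 of the 4 control libraries and the second without any 1 library except GFP+DsRed+ replicate 1, where the adjusted p of itga11a was 0.0274. The call of itga11a was also lost with a pseudocount of 0.25 (adjusted p = 0.0517), with no filter (adjusted p = 0.0821) and when only the groups compared were fitted (adjusted p = 0.0612). In csf1rDM against control GFP+DsRed- cells, the differences of -0.73 ± 0.23 for itga10 (adjusted p = 0.104) and -0.90 ± 0.34 for itga11a (adjusted p = 0.153) did not pass.

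The alpha2 genes of zebrafish are several, and 2 of the 3 in the table passed the filter. itga2.2 (ENSDARG00000062974) was at 141 and 130 CPM in csf1rDM GFP+DsRed- cells, 80.8 and 68.3 CPM in control GFP+DsRed+ cells and 157 and 203 CPM in control GFP+DsRed- cells. Its GFP+DsRed+ libraries lay below the other 4, as for itgb4 and itga6b: the log2 fold change was -1.04 ± 0.20 against control GFP+DsRed- cells (adjusted p = 0.0109), and csf1rDM GFP+DsRed- cells were higher than GFP+DsRed+ cells by 0.80 ± 0.20 (adjusted p = 0.0241). Unlike for those genes, both csf1rDM libraries lay below both control GFP+DsRed- libraries, but the difference did not pass (-0.24 ± 0.20, adjusted p = 0.486). Its call in the control groups was lost without control GFP+DsRed- replicate 2 (adjusted p = 0.0748) or GFP+DsRed+ replicate 3 (adjusted p = 0.0844), and that in csf1rDM GFP+DsRed- against GFP+DsRed+ cells without any 1 of the 4 libraries compared except GFP+DsRed+ replicate 1. itga2.3 (ENSDARG00000086838) rested on few reads, with 8 and 21 reads (1.60 and 5.25 CPM) in csf1rDM GFP+DsRed- cells, 5 and 6 reads (0.50 and 0.45 CPM) in GFP+DsRed+ cells and 6 and 4 reads (0.55 and 0.40 CPM) in control GFP+DsRed- cells. Both csf1rDM libraries lay above the other 4. The difference passed against GFP+DsRed+ cells (1.44 ± 0.41, adjusted p = 0.0355) but not against control GFP+DsRed- cells (1.51 ± 0.41, adjusted p = 0.0739, or 2.14 ± 0.26 and adjusted p = 0.0152 without csf1rDM replicate 2), and the first call was lost without any 1 library except csf1rDM replicate 2 or when lower genes were kept in the test or only the groups compared were fitted. itga11b, with values between 0.20 and 8 CPM, differed most between the csf1rDM libraries and passed in no comparison with all libraries. Against GFP+DsRed+ cells, itga11b was higher without csf1rDM replicate 2 (1.87 ± 0.26, adjusted p = 0.00644) and lower without csf1rDM replicate 3 (-1.05 ± 0.26, adjusted p = 0.0388), and against control GFP+DsRed- cells it was lower without csf1rDM replicate 3 (-1.77 ± 0.26, adjusted p = 0.0404).

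Among the receptors for RGD-containing ligands, itga8 and itgb5 differed most and in different ways. itga8 (ENSDARG00000078717), the alpha8 chain known from smooth muscle and mesenchymal cells, was at 7.50 and 10.2 CPM in csf1rDM GFP+DsRed- cells, 5.20 and 5 CPM in control GFP+DsRed+ cells and 32.1 and 22.5 CPM in control GFP+DsRed- cells. The 3 groups did not overlap, and control GFP+DsRed- cells were highest. The log2 fold change was -1.37 ± 0.25 in csf1rDM against control GFP+DsRed- cells (adjusted p = 0.0301) and -2.00 ± 0.25 in GFP+DsRed+ against GFP+DsRed- control cells (adjusted p = 0.00181). itgb5 (ENSDARG00000012942), a partner of alphaV, was at 14.2 and 8.70 CPM in csf1rDM GFP+DsRed- cells, 70.5 and 66.8 CPM in GFP+DsRed+ cells and 42.3 and 41.4 CPM in control GFP+DsRed- cells. It was the only one of the 29 members to pass in all 3 comparisons. csf1rDM GFP+DsRed- cells were lower than GFP+DsRed+ cells by -2.59 ± 0.24 (adjusted p = 0.000424) and lower than control GFP+DsRed- cells by -1.67 ± 0.24 (adjusted p = 0.0149), and GFP+DsRed+ cells were higher than control GFP+DsRed- cells by 0.91 ± 0.24 (adjusted p = 0.0329). The last of these was lost without scaling for library composition (adjusted p = 0.0678), with no filter on low genes (adjusted p = 0.0534), with libraries thinned to the depth of the shallowest (adjusted p = 0.0601) and without any 1 of the 4 control libraries.

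itgb6 (ENSDARG00000002494), an epithelial partner of alphaV, was at 46.5 and 51.2 CPM in csf1rDM GFP+DsRed- cells, 25.8 and 25.1 CPM in control GFP+DsRed+ cells and 46.8 and 44.9 CPM in control GFP+DsRed- cells. The GFP+DsRed+ libraries lay below the other 4, as for itgb4 and itga6b. GFP+DsRed+ cells were lower than control GFP+DsRed- cells by -0.61 ± 0.16 (adjusted p = 0.0303), a call lost without any 1 of the 4 control libraries, and csf1rDM GFP+DsRed- cells were higher than GFP+DsRed+ cells by 0.85 ± 0.16 (adjusted p = 0.00718), lost without GFP+DsRed+ replicate 3. itgav, the alphaV chain common to these receptors, was at 373 and 399 CPM in csf1rDM GFP+DsRed- cells, 362 and 414 CPM in GFP+DsRed+ cells and 372 and 413 CPM in control GFP+DsRed- cells. All 3 groups overlapped, and its 95% intervals ran from -0.44 to 0.30 in csf1rDM GFP+DsRed- against GFP+DsRed+ cells, from -0.24 to 0.50 in csf1rDM against control GFP+DsRed- cells and from -0.17 to 0.57 in GFP+DsRed+ against GFP+DsRed- control cells. itga5, the alpha chain of the main fibronectin receptor, ranged from 35.2 to 69.1 CPM, itgb3a from 84.3 to 132 CPM and itgb3b from 4.60 to 10.9 CPM, and none of the 3 passed in a comparison.

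**Figure D4:**
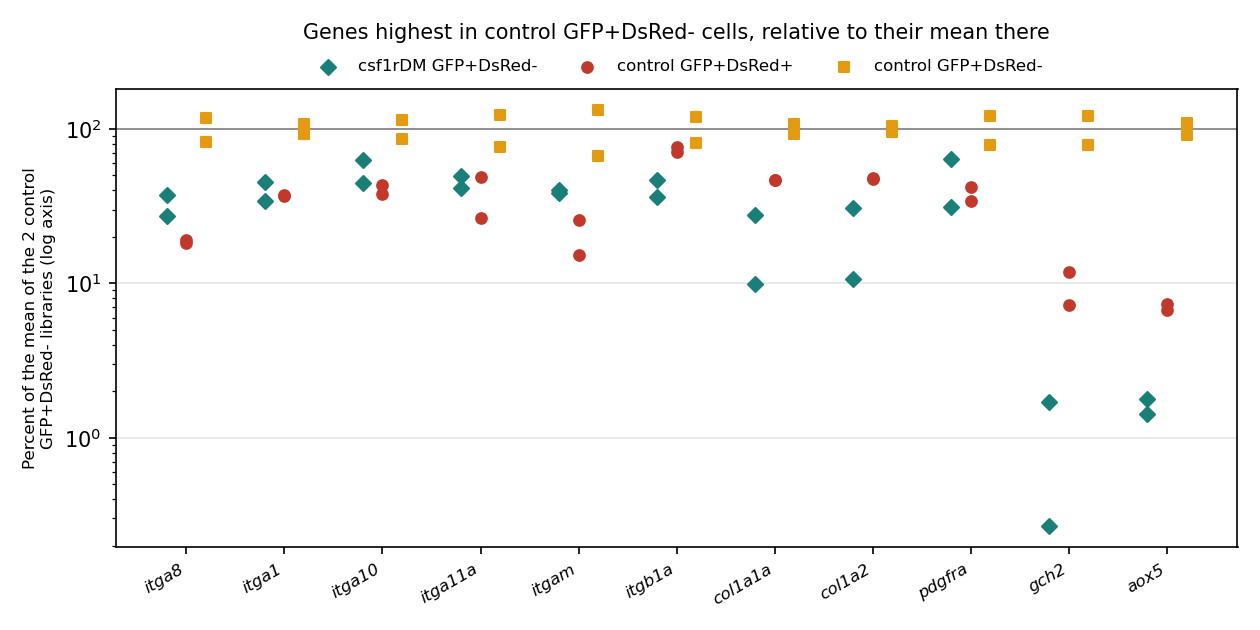
Level of each gene in each library as a percent of its mean in the 2 control GFP+DsRed- libraries, on a log axis (diamonds, csf1rDM GFP+DsRed-; circles, control GFP+DsRed+; squares, control GFP+DsRed-), for 6 of the 8 members with both control GFP+DsRed- libraries above the other 4 and for fibroblast (col1a1a, col1a2, pdgfra) and xanthophore (gch2, aox5) genes. The members itga2.2 and itgb3a are not drawn. In csf1rDM GFP+DsRed- cells, itga2.2 was at 78.6% and 72.3% of its control GFP+DsRed- mean. itgb3a was at 91.3 and 103 CPM there, against 110 and 132 CPM in control GFP+DsRed- cells. itga8 lies at 27.5% and 37.3% in csf1rDM GFP+DsRed- cells and col1a1a at 27.6% and 9.93%, while aox5 is at 1.42% and 1.77%. The fibroblast marker dcn is not drawn. Its csf1rDM GFP+DsRed- libraries (39.4 and 70.8 CPM) overlapped with those of control GFP+DsRed- cells (74.8 and 43.7 CPM).

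Both control GFP+DsRed- libraries lay above the other 4 libraries for 8 of the 29 members (itga1, itga2.2, itga8, itga10, itga11a, itgam, itgb1a and itgb3a), or 27.6%, and for 23.1% of all tested genes. Both GFP+DsRed+ libraries lay above the other 4 for 9 members (31.0%, against 19.4% of all genes) and below them for 9 members (31.0%, against 24.9%). Both csf1rDM libraries lay above the other 4 for 2 members (against 13% of all genes) and below them for 6 (against 20.5%), and both control GFP+DsRed- libraries lay below the other 4 for none (against 6.11%). Taking groups pairwise, 22 members did not overlap between GFP+DsRed+ and GFP+DsRed- control cells, 9 higher and 13 lower, against 71.7% of all genes (24.2% and 47.5%). Between csf1rDM GFP+DsRed- and GFP+DsRed+ cells 23 did not overlap, 12 higher and 11 lower, against 67.1% of all genes (32.7% and 34.4%). Fibroblast marker sums were also highest in control GFP+DsRed- cells, and so were the pigment cell sums. Within csf1rDM GFP+DsRed- cells the fibroblast sum was 2835 CPM in replicate 2 and 1093 CPM in replicate 3, with col1a1a and col1a2 lower and pdgfra and dcn higher in replicate 3. Of the 8 members highest in control GFP+DsRed- cells, itga2.2 and itga11a were lower and the other 6 higher in replicate 3. The part of fibroblasts and pigment cells in the levels of these members was not tested.

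The beta1 chain, the common partner of most alpha chains, has several genes in zebrafish, of which 4 were tested. itgb1a (ENSDARG00000071863) was at 50.3 and 65.6 CPM in csf1rDM GFP+DsRed- cells, 98.2 and 106 CPM in control GFP+DsRed+ cells and 166 and 113 CPM in control GFP+DsRed- cells. Its level in csf1rDM cells was below that of control GFP+DsRed- cells, by -1.09 ± 0.21 (adjusted p = 0.0325), and below that of GFP+DsRed+ cells (-0.88 ± 0.21, adjusted p = 0.0175, a call lost without csf1rDM replicate 2 or either GFP+DsRed+ replicate), and it did not pass between the control groups (-0.21 ± 0.21, adjusted p = 0.52). itgb1b (ENSDARG00000104484) was at 76.3 and 78.5 CPM in csf1rDM GFP+DsRed- cells, 154 and 108 CPM in GFP+DsRed+ cells and 108 and 96.3 CPM in control GFP+DsRed- cells. Its csf1rDM libraries were below the other 4, but with all libraries only the difference from GFP+DsRed+ cells passed (-0.79 ± 0.20, adjusted p = 0.0247), and it was lost without GFP+DsRed+ replicate 1 or either csf1rDM replicate. Between the control groups itgb1b did not pass, but did without GFP+DsRed+ replicate 3 (0.83 ± 0.20, adjusted p = 0.0486). itgb1b.1 (ENSDARG00000053232) was at 37.7 and 53.2 CPM in csf1rDM GFP+DsRed- cells, 90.4 and 104 CPM in GFP+DsRed+ cells and 33.1 and 37.9 CPM in control GFP+DsRed- cells. It was higher in GFP+DsRed+ than in GFP+DsRed- control cells (1.64 ± 0.21, adjusted p = 0.00198) and lower in csf1rDM GFP+DsRed- than in GFP+DsRed+ cells (-1.16 ± 0.21, adjusted p = 0.00647, or 0.0513 without GFP+DsRed+ replicate 3). itgb1b.2 stayed between 2.80 and 8.25 CPM and passed in no comparison. The genes itgb1b, itgb1b.2 and itgb1b.1 follow each other in the RefSeq order with no protein-coding gene between neighbours, and reads that fit more than 1 of these copies make their separate levels uncertain.

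Whether the integrin genes of GFP+DsRed- cells differ in the absence of csf1r was asked by comparing the genotypes, and the 4 members that passed were itga1, itga8, itgb1a and itgb5, each lower in both csf1rDM libraries than in both control libraries. Their log2 fold changes lay between -1.67 and -1.09, and the direction held in every alternative. None of the 4 calls survived the removal of either control GFP+DsRed- library: without replicate 1 their adjusted p values were 0.0831 to 0.169, and without replicate 2 they were 0.0886 to 0.124. The calls of itga8 and itgb1a were also lost without any 1 of the other 4 libraries, when only the groups compared were fitted, and when no filter on low genes was applied. In the same comparison, fibroblast and pigment cell marker sums were lower in csf1rDM cells, as given above. By gene, 5 of the 6 pigment cell markers but only 2 of the 4 fibroblast markers passed as lower. The 2 were col1a1a (-2.44 ± 0.43, adjusted p = 0.0264) and col1a2 (-2.31 ± 0.44, adjusted p = 0.0324). Neither pdgfra (-0.94 ± 0.34, adjusted p = 0.141) nor dcn (0.04 ± 0.33, adjusted p = 0.957) passed. The part of fibroblasts and pigment cells in the 4 integrin differences was not tested. The groups did not overlap in this comparison for 15 of the 29 members (2 higher and 13 lower in csf1rDM cells), or 51.7%, while this held for 58% of all tested genes (19.3% higher and 38.7% lower).

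Genes that switch integrins on or tie them to the cytoskeleton were taken as a list of 46, of which 42 were tested. Of these, 13 were higher and 10 lower in GFP+DsRed+ than in GFP+DsRed- control cells (median 0.08), beside 14.6% higher and 10.8% lower among all tested genes, and 5 were lower without control GFP+DsRed- replicate 1 and 6 without replicate 2. The number of all tested genes that passed was lower in these fits too. Without scaling for library composition the split of the list was 12 higher and 14 lower. Talin 1 (tln1), which binds beta chain tails and activates the receptor, was at 325 and 285 CPM in csf1rDM GFP+DsRed- cells, 713 and 802 CPM in GFP+DsRed+ cells and 332 and 270 CPM in control GFP+DsRed- cells (1.55 ± 0.16 in GFP+DsRed+ against GFP+DsRed- control cells, adjusted p = 0.00074). The tensin genes tns3.1 (4.27 ± 0.32, adjusted p = 0.00021) and tns3.2 (2.07 ± 0.22, adjusted p = 0.000801), whose products link integrins to actin, were higher in GFP+DsRed+ cells as well. ptk2ab, a focal adhesion kinase gene (-1.36 ± 0.16, adjusted p = 0.00139), the tensin gene tns1b (-1.33 ± 0.17, adjusted p = 0.00201) and the vinculin gene vclb (-1.05 ± 0.17, adjusted p = 0.00484) were lower there. In csf1rDM GFP+DsRed- against GFP+DsRed+ cells, 10 were higher and 13 lower, beside 14.1% and 18.3% of all tested genes, with ptk2ab at 2.00 ± 0.16 (adjusted p = 0.000248), vclb at 1.19 ± 0.17 and the kindlin 1 gene fermt1, an epithelial integrin activator, at 1.36 ± 0.20 (adjusted p = 0.00267). The lower ones included tns3.2 (-2.76 ± 0.22), tns3.1 (-3.18 ± 0.32) and tln1 (-1.38 ± 0.16, adjusted p = 0.000977). Between csf1rDM and control GFP+DsRed- cells, none of the 42 passed in limma with all libraries, beside 6.51% of all tested genes. This did not hold without csf1rDM replicate 2. At an unadjusted p below 0.05 in limma, 4 were higher and 1 lower (11.9%), against 26.7% of all tested genes.

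Of 33 genes for integrin ligands, 23 were tested, and 4 were higher and 11 lower in GFP+DsRed+ than in GFP+DsRed- control cells (median -0.92), beside 14.6% higher and 10.8% lower and a median of -0.03 among all tested genes. Higher were tgfbi (2.77 ± 0.30, adjusted p = 0.000886), fn1a, a fibronectin gene (1.41 ± 0.22, adjusted p = 0.00422), and spp1, the osteopontin gene (1.55 ± 0.26, adjusted p = 0.00575). Lower were cdh1, the ligand of alphaEbeta7 (-1.30 ± 0.17, adjusted p = 0.00218), vcam1b, a ligand gene for alpha4beta1 (-2.94 ± 0.43, adjusted p = 0.00329), and the laminin gene lamc1 (-1.18 ± 0.21, adjusted p = 0.00739). Without GFP+DsRed+ replicate 3, 2 ligand genes were lower in place of 11, lamc1 no longer among them (adjusted p = 0.0607), and without control GFP+DsRed- replicate 1, 6 were lower. Fewer of all tested genes passed in both of these fits as well. vcam1b was at 2.40 and 7.75 CPM in csf1rDM GFP+DsRed- cells, 6.10 and 4.80 CPM in GFP+DsRed+ cells and 52.2 and 59.2 CPM in control GFP+DsRed- cells. It was the only ligand gene lower in csf1rDM than in control GFP+DsRed- cells, by -3.23 ± 0.43 (adjusted p = 0.0116), and thbs1b, a thrombospondin gene, was the only one higher (1.10 ± 0.15, adjusted p = 0.0131), but neither passed without control GFP+DsRed- replicate 1 or 2, nor thbs1b without csf1rDM replicate 3. Without csf1rDM replicate 2, 3 ligand genes were higher and 1 lower, and without csf1rDM replicate 3, 0 were higher and 2 lower. In csf1rDM GFP+DsRed- against GFP+DsRed+ cells, 10 ligand genes were higher and 4 lower (median 0.70), beside 14.1% and 18.3% of all tested genes with a median of -0.07, and 5 were higher without GFP+DsRed+ replicate 3. Among the higher ones were thbs1b (1.79 ± 0.15) and cdh1 (1.66 ± 0.17). tgfbi (-2.73 ± 0.30), the tenascin gene tnc (-2.11 ± 0.30) and fn1a (-1.35 ± 0.22) led the lower ones. cdh1 is also one of the epithelial markers summed above.

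The remaining members gave little to compare. itga9, an alpha9 chain related to alpha4, ranged from 6.80 to 17.9 CPM, with both GFP+DsRed+ libraries below the other 4, and did not pass (-0.74 ± 0.24 in GFP+DsRed+ against GFP+DsRed- control cells, adjusted p = 0.0628). Of the 4 members below the filter, itga2b, the alphaIIb chain of thrombocytes, had between 0 and 5 reads a library, itga6l between 0 and 4, itgb8 between 3 and 12 and itga2.1 between 1 and 10. Levels at this depth do not allow a comparison.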

How the data were processed

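Bulk RNA sequencing of GFP+ cells from the skin of tg(mpeg1-EGFP) fish was analysed from the deposited table of 32520 genes in 6 libraries. Per the study's methods, libraries were made with the Ovation SoLo kit and paired-end reads were aligned to GRCz11 with Ensembl release 94 annotation. The submitters' processing notes name STAR 2.5.4b and HTSeq 0.11.0. The strand setting and the treatment of reads that fit several genes were not given in the sources used here. The deposited values are a signal: each library had been scaled by the authors to a total of about 20000000 and each value rounded up to a whole number, which was read from the values and is not described in the sources used here. Reads behind at least 99.886% of the values of each library came out whole and served only for depth, floors of 3 reads and thinning. Because rounding up left the steps inexact, no count test was run, although 2 had been planned.

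CPM are relative to the library total. Groups were compared with limma 3.58.1 (R 4.3.3, empirical Bayes with a mean trend) on log2(CPM + 1) after scaling by TMM factors (trimmed mean of M values, 0.922 to 1.128), in 1 fit of all 6 libraries with 1 coefficient per group, 3 residual degrees of freedom before moderation and no covariate. Genes needed 1 CPM in 2 libraries. Fold changes are on the log2(CPM + 1) scale, which understates those of low genes. TMM moved the log2 fold changes of all tested genes by a median of 0.195 in control GFP+DsRed+ against control GFP+DsRed- cells, 0.137 in csf1rDM against control GFP+DsRed- cells and -0.06 in csf1rDM GFP+DsRed- against control GFP+DsRed+ cells. A call was an adjusted p below 0.05, and a second rule added an absolute log2 fold change above 2. The procedure was also run on simulated data with large changes in 1 group only, which does not measure its error rates for smaller changes. Every member called in a comparison is given in every library, other tested members by their range, and of the machinery and ligand lists up to 3 genes per direction with the smallest adjusted p. The result of 1 ligand gene that this rule names is not reported here. Of the 46 machinery genes, fermt3a, fyb1 and parva, and of the ligand genes lamb3, npnta and npntb, had no row of that name. Members, lists and tests were chosen with earlier results of these data known. Gene order came from a RefSeq table of GRCz12tu, where 30 of 33 members matched by symbol. Levels carry counting error at the depths given, and intervals from the fit are at 95%. Alternatives were another scaling, none, other filters, another pseudocount, a fit of only the groups compared, thinning, a replicate block and leaving out each library. Figures were drawn with matplotlib 3.10.9.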

Additional observations from a re-analysis of the deposited data

How the results depend on the processing

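None of the 38 calls on single members changed direction in 549 values under alternatives, of which 457 kept the call and 92 lost it. Each of 32 calls held in every alternative other than the replicate block and leaving out a library. For control GFP+DsRed+ against control GFP+DsRed- cells, 18 members passed, 11 with the replicate block and 10 to 17 without 1 library. The 5 beyond a log2 fold change of 2 became 8 with the block, 7 without scaling for library composition, 7 with a pseudocount of 0.25 and 6 with thinning. For csf1rDM against control GFP+DsRed- cells, 4 passed, 2 with no filter, 2 with only the groups compared, 0 with the block and 0 to 4 without 1 library, and 0 to 2 were beyond the fold without 1 library (2 without csf1rDM replicate 2) against 0 with all. For csf1rDM GFP+DsRed- against control GFP+DsRed+ cells, 16 passed, 9 with the block and 9 to 15 without 1 library. Over all genes in csf1rDM against control GFP+DsRed- cells, 1327 passed, 697 with no filter, 586 with only the groups compared and 67 with the block. The block gave 2245 in place of 5180 genes between the control groups and 3756 in place of 6610 between csf1rDM GFP+DsRed- and control GFP+DsRed+ cells. With 1 library left out these 3 counts, from 1327, 5180 and 6610, ranged from 119 to 1728, from 2223 to 6032 and from 3353 to 6690. With a pseudocount of 0.25, 496 in place of 317 genes were beyond the fold in csf1rDM against control GFP+DsRed- cells. A group left with 1 library is assumed to vary like the others, and the cause of these changes was not tested. Libraries with the same replicate number did not deviate together (r = -0.423, 0.031 and 0.021 across genes for numbers 1, 2 and 3), so the numbers were not taken as pairs. With 2 libraries a group, deviations within a group are equal and opposite. The negative r for number 1 thus means that control libraries of unlike number deviated together. The block leaves 1 residual degree of freedom. Crossed pairs in the 4 control libraries, chosen after seeing the data, gave 21 and 5 members, and 9145 genes. These pairs join the control libraries that deviated together, so the higher counts follow from that choice and are no evidence of a pairing. The planned edgeR and DESeq2 tests on reads recovered from the deposited signal were not run, since rounding up left the steps inexact. The csf1rDM libraries, at 5072623 and 4024245 reads, limit what can be read from members below 1 CPM.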
